A study of Drosophila melanogaster with 2 samples.

Results

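The nuclear transfer RNA (tRNA) genes of Drosophila melanogaster were examined for recovery with TFAM, a protein that binds and packages mitochondrial DNA. Members were the 290 genes of biotype tRNA on the nuclear chromosome arms in the Ensembl annotation, out of 18164 nuclear genes of all biotypes. The rule that picks them uses biotype and chromosome, not peak values. A gene was counted when the summit of a peak, the base at which the peak caller placed its maximum, lay within 500 bp of the gene's start.

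Chromatin was immunoprecipitated from whole embryos of both sexes, 0 to 16 h of age, that carried a TFAM protein with GFP fused to its C terminus. The precipitating antibody was against GFP according to the sample descriptions, while the antibody field names TFAM itself. The 2 samples were independent biosamples of the same transgenic line, numbered replicate 3 and replicate 4. They form a single group, so no groups were compared. Whole embryos hold many cell types, and a summit cannot be assigned to any of them. Each replicate had a list of peaks together with background regions (13396 in replicate 3 and 13455 in replicate 4), and a further such list of 9598 regions was called on both replicates pooled. The authors' threshold on reproducibility between replicates left 1290 peaks, called the thresholded list here. Every region carries a value assigned by the authors' peak caller, whose scale differs between lists, and a q-value of up to 0.96, so many regions of the first 3 lists are background.

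TFAM is an HMG-box protein that bends and compacts mitochondrial DNA and takes part in starting mitochondrial transcription. Nuclear tRNA genes are transcribed by RNA polymerase III, which is recruited through promoter elements inside the gene: an A box near the start and a B box farther in. Transcription factor TFIIIC binds both boxes and positions TFIIIB, which holds Brf and Bdp1, just upstream of the start. Many tRNA genes are near-identical copies that lie in clusters, and short reads from identical copies cannot be told apart unless they reach the unique flank.

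Sequences are shown first for tRNA:Tyr-GTA-1-8, the member with the highest value in all 4 lists, and for the copies next to it. All sequences are from the RefSeq assembly of Release 6, whose coordinates are those of dm6. The genes are read 5′ to 3′ on their own strand, and capitals mark matches to the A box core TNGCNNAG and the B box core GTTCNANNC. These 3 genes had identical exons of 73 bases in all and differed in their own introns of 20 or 21 bases. The last line gives the 60 bases just upstream of tRNA:Tyr-GTA-1-8, toward its summit.
tRNA:Tyr-GTA-1-8 (chr3R:8669081-8669174, minus strand): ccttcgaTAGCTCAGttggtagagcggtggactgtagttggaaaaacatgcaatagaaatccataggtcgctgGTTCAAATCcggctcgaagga
tRNA:Tyr-GTA-1-7 (chr3R:8668612-8668705, minus strand): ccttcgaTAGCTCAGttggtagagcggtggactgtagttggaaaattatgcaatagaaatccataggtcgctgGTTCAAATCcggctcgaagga
tRNA:Tyr-GTA-1-6 (chr3R:8668116-8668208, minus strand): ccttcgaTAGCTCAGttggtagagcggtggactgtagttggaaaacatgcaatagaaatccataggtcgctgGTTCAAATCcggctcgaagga
Bases before tRNA:Tyr-GTA-1-8 (chr3R:8669175-8669234, minus strand): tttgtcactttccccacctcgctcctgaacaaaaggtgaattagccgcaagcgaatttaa

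The summits themselves lay outside those boxes. The 101 bases centred on the thresholded summits near tRNA:Tyr-GTA-1-8 and tRNA:Phe-GAA-1-2 are shown to give the DNA at which recovery peaked, beside rather than inside the tRNA genes. Neither stretch overlapped an exon of a protein-coding gene, and each occurred once on the nuclear chromosomes. Both were searched on both strands for the DRE (TATCGATA), the binding sequence of the factor DREF, and for GAGAGAG, a repeat bound by GAGA factor. Capitals would mark a match, and these letters are in neither window. The summit of the remaining thresholded member, for which no sequence is printed, has a DRE within 100 bases.
Summit near tRNA:Tyr-GTA-1-8 (chr3R:8669335-8669435, plus strand): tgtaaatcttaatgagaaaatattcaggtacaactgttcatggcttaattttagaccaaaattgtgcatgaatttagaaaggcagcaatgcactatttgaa
Summit near tRNA:Phe-GAA-1-2 (chrX:6744258-6744358, plus strand): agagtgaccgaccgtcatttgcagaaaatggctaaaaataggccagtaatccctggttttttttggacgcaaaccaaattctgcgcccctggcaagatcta

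The tRNA:Tyr-GTA-1-8 gene encodes a tyrosine tRNA and had a value of 115.3 in replicate 3, 126.9 in replicate 4 and 241 in the pooled and thresholded lists. Those values ranked 182 of 13396 and 158 of 13455 in the replicates, and 164 in the pooled list. It stood high in both replicates. Its thresholded peak spanned chr3R:8669190-8669579, with the summit 211 bp upstream of the tRNA start. The same summit lay 233 bp upstream of a start of CG8036, a transketolase-like gene that runs the other way. The summits of replicates 3 and 4 fell 229 and 194 bp upstream of the tRNA start, and 215 and 250 bp from that start of CG8036, so in replicate 3 the coding start was the nearer. The gene sits in introns of CG8036 and of p (pink), and the peak ended before the tRNA gene began. In the copies tRNA:Tyr-GTA-1-7 and tRNA:Tyr-GTA-1-6, which follow it in the same locus, no list had a summit within 500 bp.

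The tRNA:Phe-GAA-1-2 gene, for a phenylalanine tRNA, had values of 52.9 in replicate 3, 68.3 in replicate 4 and 119.5 in the pooled and thresholded lists. Its thresholded peak (chrX:6744113-6744502) was the only one of that list that reached into the body of a member. The summit lay 70 bp upstream of the start of RpL17, a protein of the large ribosomal subunit, and 235 bp downstream of the tRNA start, past the end of this 73-bp gene. In both replicates the summit was nearer to the start of RpL17 than to that of the tRNA gene. The remaining 7 tRNA:Phe-GAA genes had no thresholded summit.

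The remaining member with a thresholded summit was tRNA:Trp-CCA-2-2 on chromosome arm 2R, for a tryptophan tRNA. Its values were 50.9 in replicate 3, 94.2 in replicate 4 and 142.6 in the pooled and thresholded lists. The summit was 10 bp upstream of the start of the protein-coding gene CG30122 and 277 bp upstream of the tRNA start. The same peak lay 516 bp from the start of tRNA:Gly-GCC-1-9, just outside the window. Another thresholded summit, of value 156.0, lay 533 bp upstream of tRNA:Ile-AAT-1-9, an isoleucine tRNA gene. Of the 3 counted summits of the thresholded list, 2 were nearer to a protein-coding start than to the tRNA start, and none lay within 200 bp of a tRNA start.

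**Figure D1:**
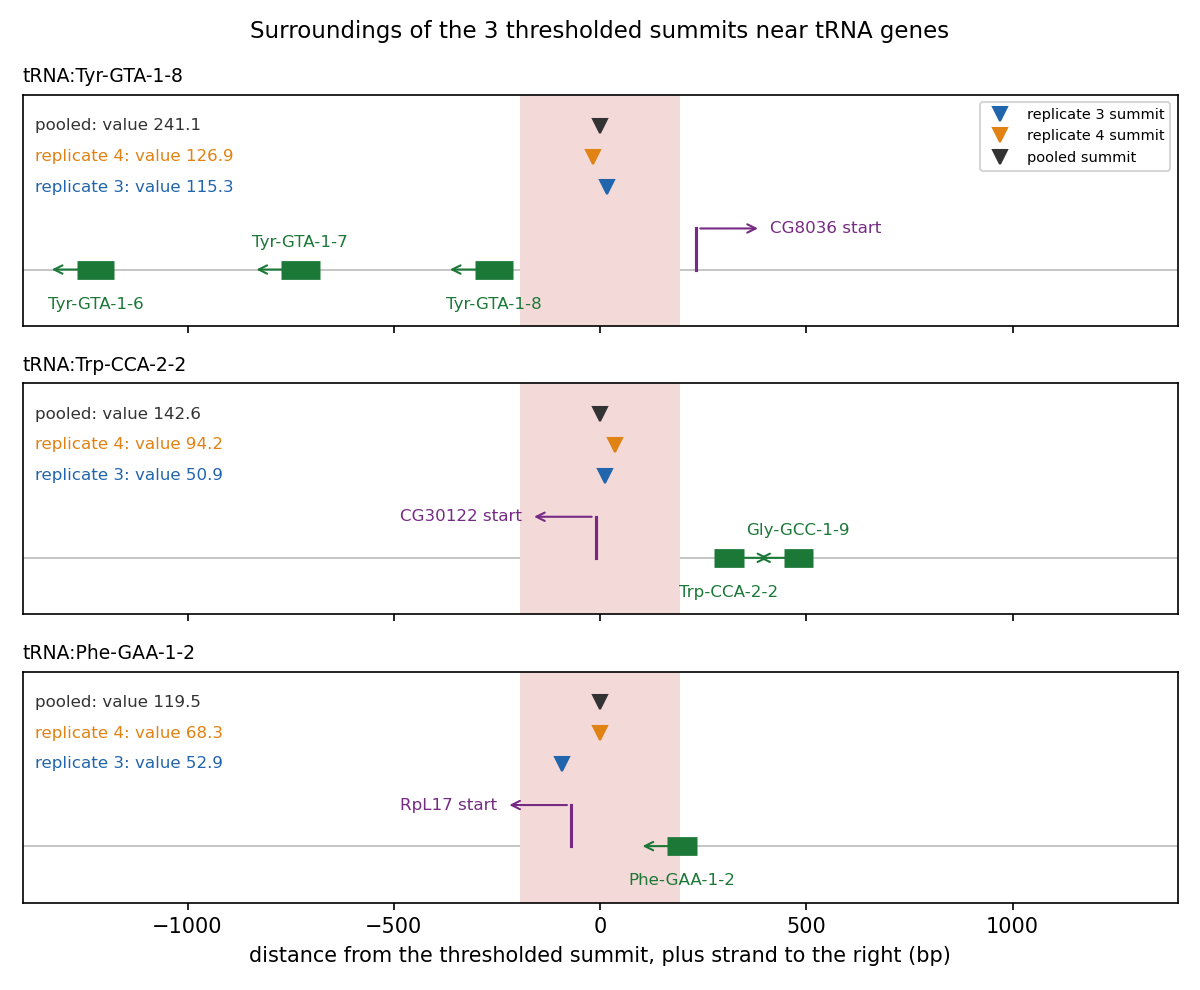
Positions of the summits (triangles) around the 3 members with a thresholded peak, in bp from the thresholded summit, with the plus strand to the right. Green boxes are tRNA genes with arrows in the direction of transcription, purple arrows the nearest protein-coding start and shading the thresholded peak. The peak of tRNA:Phe-GAA-1-2 reaches its gene, and the other 2 peaks end before theirs.

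In the thresholded list 3 of 290 members were counted (1.03%, Wilson 95% interval 0.352 to 3.00), where the share of all nuclear gene starts was 3.75%. All 3 belonged to the 32 members that have a protein-coding start within 500 bp of their own. None of the other 258 had a thresholded summit. If a count of 0 is taken to allow up to 3 genes, the share there could reach 1.16%, which is not a Wilson limit. Members with a coding start nearby make up 11.0% of the family. Small nucleolar RNA genes, which guide RNA modification, were counted in 3 of 29 cases with a coding start nearby and 2 of 240 without. Genes annotated as other non-coding RNA gave 14 of 547 and 46 of 2714. The intervals cover the counting of genes only, and genes that share a peak are not independent.

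**Figure D2:**
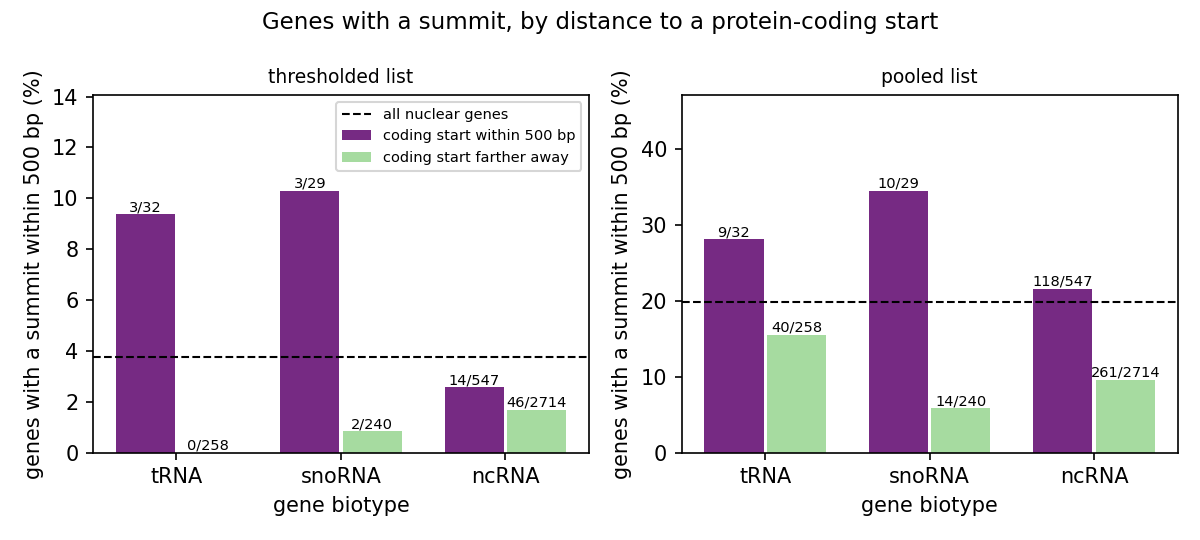
Share of genes (%) with a summit within 500 bp of the start, for tRNA, small nucleolar RNA and other non-coding RNA genes, split by whether a protein-coding start lies within 500 bp. Numbers above bars are genes counted over genes in the class, and the dashed line is the share of all nuclear genes (3.75% and 19.8%). All 3 tRNA genes of the thresholded list are in the class with a coding start nearby.

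In the lists that include background regions, the family stood close to other genes. The pooled list had a summit within 500 bp of 49 members (16.9%, 13.0 to 21.6), against 19.8% of all nuclear genes. Replicate 3 had one at 56 members (19.3%, 15.2 to 24.2) against 23.2%, and replicate 4 at 61 (21.0%, 16.7 to 26.1) against 23.1%. In each of these 3 lists the background lay inside the interval of the family. With every transcript start of a gene counted, the background rose to 22.0% in the pooled list and 25.5% in replicate 3, above those intervals, and to 25.6% in replicate 4, inside its interval. With regions of q-value 0.05 or less, the counts were 8 in the pooled list (2.76%, 1.40 to 5.35, background 6.91%), 10 in replicate 3 (3.45%, 1.88 to 6.23, background 8.84%) and 10 in replicate 4 (3.45%, background 4.94%). In the pooled and replicate 3 lists this background lay above the interval of the family. Of the 8, 5 were among the 32 members with a coding start nearby. With those 32 left out, 40 of 258 members (15.5%) had a pooled summit, against 9.62% of other non-coding RNA genes and 5.83% of small nucleolar RNA genes that likewise lie farther from coding starts. At a q-value of 0.05 or less the members had the lowest share instead, with 3 of 258 (1.16%) against 2.73% and 2.50% in the pooled list. In replicate 3 the shares so limited were 1.55% of these members, 3.72% of other non-coding RNA genes and 2.08% of small nucleolar RNA genes. In replicate 4 they lay closer, at 1.55%, 1.99% and 2.08%. The share of members rests on 4 genes in each replicate. Genes for ribosomal RNA had no summit in any list (0 of 99), and whether reads can be placed uniquely at them was not examined.

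Both replicates counted the same 32 members (11.0%, 7.93 to 15.2), against 13.8% of all nuclear genes. That is 57.1% of the members of replicate 3 and 52.5% of those of replicate 4, and over all genes the share was 59.8% of each list. For the 32 members the closest pair of replicate summits lay a median of 46 bp apart (5 to 320), and 26 members had it within 100 bp. That pair need not hold the summits of highest value, and genes that share a region repeat the same pair. A summit in either replicate was found at 85 members, and 203 had none in the replicates or the pooled list. Only tRNA:Tyr-GTA-1-8, tRNA:Phe-GAA-1-2 and tRNA:Trp-CCA-2-2 stood above the 90th percentile of both replicate lists, while 15 of the 32 exceeded the median of both. The thresholded list, which holds those 3, was chosen for reproducibility between these replicates, so their high place in both is no separate evidence.

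**Figure D3:**
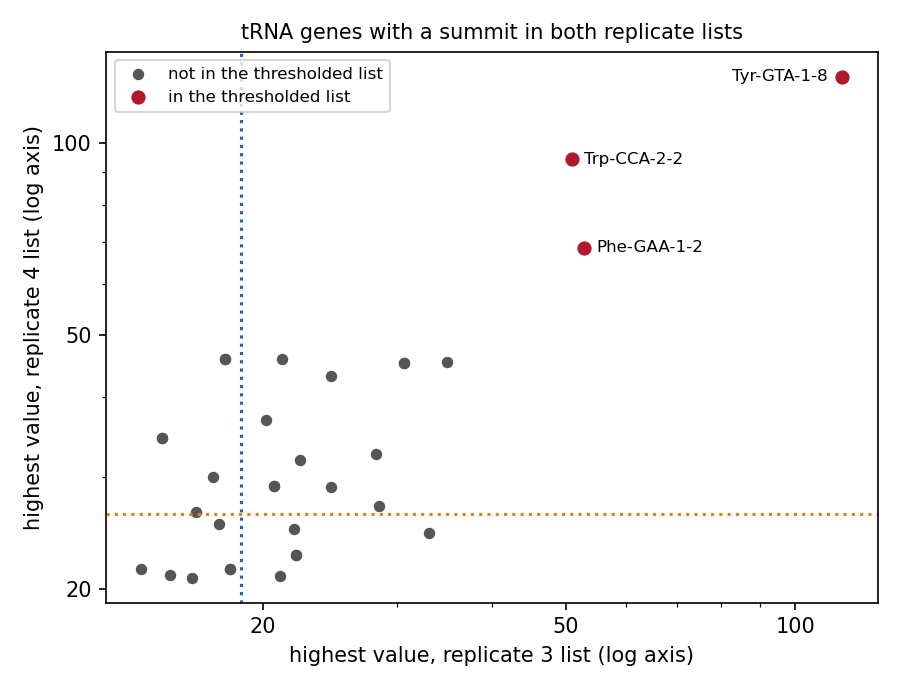
Highest value within 500 bp in the replicate 3 list (x axis) and the replicate 4 list (y axis) for the 32 tRNA genes counted in both, on log axes. Genes that share a region overlap, and dotted lines are the medians of all nuclear regions of each list (18.7 and 26.2). The 3 genes of the thresholded list (red), which was chosen for reproducibility between these replicates, stand apart from the rest.

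The regions near members were of middling strength. The pooled summits came from 38 separate regions with a median value of 46.0, against 46.1 over all 9576 nuclear regions of that list. The medians were 18.3 against 18.7 in replicate 3 (50 regions) and 26.6 against 26.2 in replicate 4 (47 regions). Of the 38 regions, 18.4% had a q-value of 0.05 or less, as did 25.6% of all pooled nuclear regions. Of the 38, 10 lay within 500 bp of more than 1 tRNA gene and at most 4 genes shared a region, so the count of genes exceeds the count of separate observations. In the pooled list the median proportion of A and T within 100 bases of the summit was 60.2% both near members and over all regions. The other lists differed: 61.7% near members against 62.2% in replicate 3, and 60.2% against 55.7% in replicate 4. In the thresholded list it was 54.7% at the 3 summits near members against 64.7%.

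Summits did not sit at a fixed place in the gene. In the pooled list the median position of the nearest summit was 30 bp upstream of the start, with 27 genes having it upstream and 22 at or downstream of the start. The median was 54 bp downstream in replicate 3 and 32 bp upstream in replicate 4. Of the 38 pooled summits, 2 fell inside a tRNA gene, as did 6 of 50 in replicate 3 and 6 of 47 in replicate 4. The genes fill a small part of the windows. Whether they held fewer or more summits than their share of those bases was not tested.

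Per base, summits of the pooled and replicate lists, background regions included, were denser near tRNA genes than over the genome. Within 500 bp of a tRNA start the pooled list held 38 summits in 219868 bp, or 173 per Mb (Poisson 95% interval 122 to 237), against 71.7 per Mb over the nuclear chromosomes. The pooled density fell with distance to 145 per Mb at 500 to 1000 bp, 124 at 1 to 2 kb, 93.0 at 2 to 5 kb and 80.5 at 5 to 10 kb. The replicates did not fall at each step: from 500 to 1000 bp to the next shell, at 1 to 2 kb, replicate 3 went from 169 to 176 per Mb and replicate 4 from 175 to 186. On bases with no protein-coding start within 500 bp it was 151 per Mb (101 to 216) next to tRNA starts, 62.1 at 5 to 10 kb and 53.7 over all such bases. The replicates gave 198 (140 to 271) against 81.1 in replicate 3, and 192 (135 to 265) against 80.5 in replicate 4. Away from coding starts the thresholded list had 0 summits in 192396 bp, which allows up to 19.2 per Mb by the Poisson interval, against 5.86 over all such bases. These intervals cover counting only, and no test was made. No q-value limit was applied to the pooled and replicate densities. Of the 40 members away from coding starts with a pooled summit, 3 had one at a q-value of 0.05 or less.

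**Figure D4:**
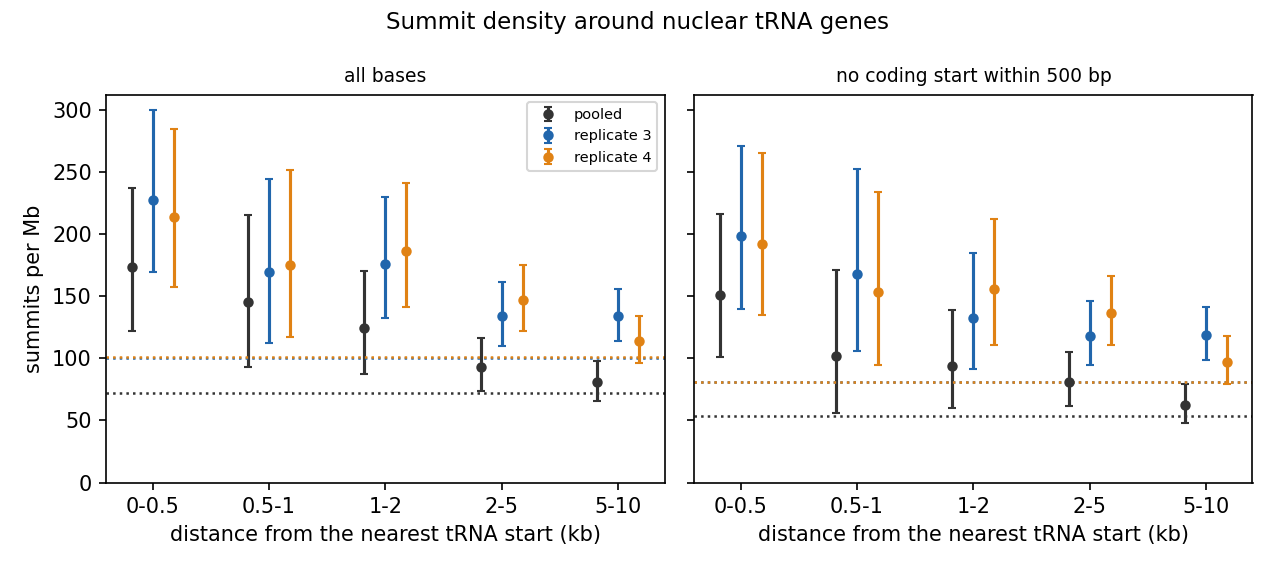
Summits per Mb (y axis) in shells of distance from the nearest tRNA start (x axis, kb), for all bases (left) and bases with no protein-coding start within 500 bp (right). Points are the pooled and replicate lists, background regions included, with Poisson 95% bars, and dotted lines the whole nuclear value of each list. The pooled points fall from 173 to 80.5 on the left and from 151 to 62.1 on the right.

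Over the whole pooled list, counts were alike in introns and between genes. Of 127 members inside an intron of a protein-coding gene, 20 (15.7%) had a pooled summit, as did 25 of 156 intergenic members (16.0%) and 4 of 7 that overlap an exon. At a q-value of 0.05 or less the pooled counts were 1 of 127 in introns and 7 of 156 between genes. Those of replicate 4 were 1 and 9, and those of replicate 3 were 3 and 7, a smaller gap. The 7 pooled members between genes include tRNA:Asp-GTC-1-4 and tRNA:Asp-GTC-1-5, which share a region. Of all 8 such pooled members, 5 have a coding start within 500 bp, so this gap was not separated from closeness to coding starts. In introns the host ran on the opposite strand for 72 members, 12 of them counted, and on the same strand for 49, 6 of them counted. A further 6 members lie in hosts on both strands, and 2 of these were counted, tRNA:Tyr-GTA-1-8 among them. The 16 members that contain an intron of their own were counted in 5 cases and the other 274 in 44. Members whose sequence has no identical copy were counted in 12 of 52 cases, and those with a copy in 37 of 238 (15.5%).

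Members joined at 5000 bp formed 144 loci, of which 76 held 1 gene and 68 held the remaining 214 genes. A pooled summit lay at 33 loci and a thresholded one at 3. Single-gene loci were counted in 8 of 76 cases, loci of 2 or more in 25 of 68 and the 9 loci of 6 or more genes in 6, although a larger locus also has more windows to be counted in. The 2 largest loci hold 11 genes each. The one on 3R (17617761 to 17631750), with genes for alanine, proline, threonine and valine tRNAs, had 1 pooled region of value 63.8 that reached 3 of its genes. The one on 2R, with genes for arginine, asparagine, isoleucine and lysine tRNAs, had a single pooled region of value 40.6 at 1 gene and no replicate summit. The most counted members were in a locus of 7 genes for isoleucine and leucine tRNAs on 2R, with 4 pooled genes and a highest value of 57.6. The region of that value reached 1 gene and had a q-value of 0.12. Another, of value 35.3 and q-value 0.93, reached all 4. In this locus 0 genes had a summit in both replicate lists.

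By amino acid, glutamate tRNA genes had the most members with a pooled summit (6 of 19, 31.6%). Those for alanine (5 of 17), leucine (5 of 22) and arginine (5 of 26) followed. By share, phenylalanine genes stood highest (3 of 8, 37.5%), against 16.9% of all members. Under the q-value limit used above, 0 glutamate, 1 alanine, 1 leucine, 0 arginine and 1 phenylalanine genes kept a pooled summit. None of the 20 serine, 7 cysteine, 6 elongator methionine, 6 initiator methionine and 1 selenocysteine genes had a pooled summit in the full list. For serine, a count of 0 of 20, again taken to allow up to 3 genes, allows a share of up to 15.0%. In all, 22 classes were looked at. Serine genes had a summit in 2 cases in replicate 3 and 1 in replicate 4. By arm, the pooled counts were 22 of 98 on 2R, 11 of 79 on 3R, 6 of 48 on 3L, 8 of 41 on 2L and 2 of 24 on X, and chromosome 4 has no member.

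**Figure D5:**
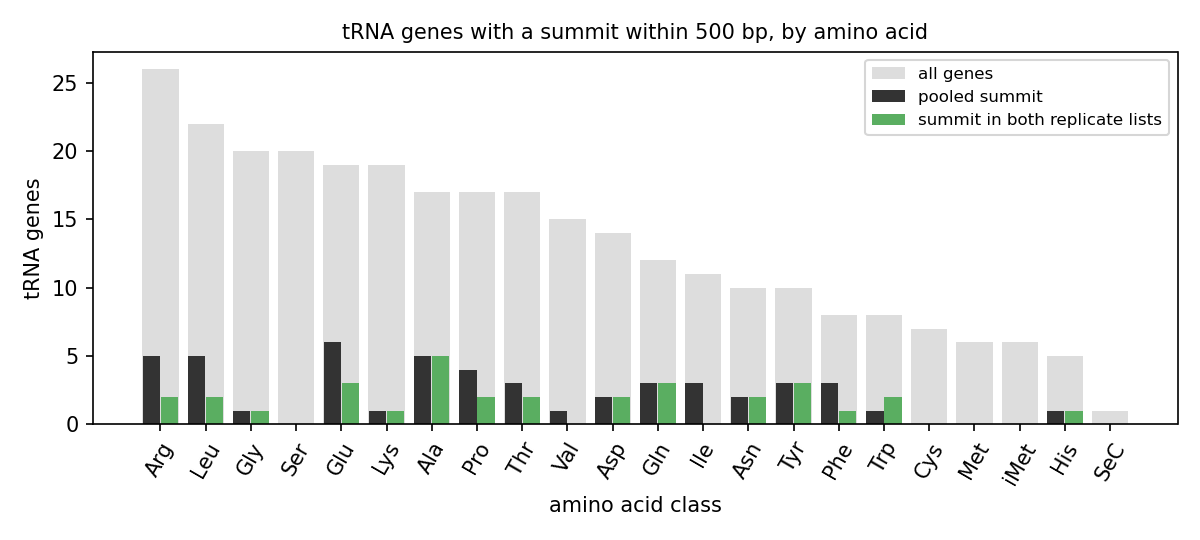
Number of tRNA genes (y axis) in each amino acid class (x axis), with all genes in grey, those with a pooled summit in black and those with a summit in both replicate lists in green. Glutamate has the most pooled genes (6 of 19), and serine, cysteine, both methionine classes and selenocysteine have none.

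Outside the thresholded list the members had pooled values of 83.6 or less. The gene tRNA:His-GTG-1-3, for a histidine tRNA beside the start of CG8490, had values of 34.9, 45.3 and 80.4 in replicate 3, replicate 4 and the pooled list, with q-values of 0.0097, 0.043 and 0.013. Its pooled summit lay 107 bp from that coding start and 143 bp from the tRNA start. The alanine tRNA gene tRNA:Ala-TGC-2-1, 2378 bp from the nearest coding start, had 24.6, 43.2 and 70.9, with a q-value of 0.027 in the pooled list and above 0.05 in both replicates. The replicate 4 region of value 94.2 near tRNA:Trp-CCA-2-2 was also counted for tRNA:Gly-GCC-1-9, a glycine tRNA gene with no summit in the other lists. In replicate 3 the fourth highest member was the valine gene tRNA:Val-CAC-2-5 in an intron of Naam, with a value of 38.1 and no summit within 500 bp in replicate 4, where a region also of value 38.1 lay 504 bp away.

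Among members without a coding start within 500 bp, the leucine gene tRNA:Leu-CAA-2-2 had the highest pooled value, 83.6 (q-value 0.0099), with a summit 485 bp upstream. Replicate 4 had a value of 42.5 at 487 bp upstream (q-value 0.061), and replicate 3 one of 42.9 at 565 bp upstream, just outside the window. The nearest coding start, that of caps, was 14583 bp from the tRNA start. The pair tRNA:Asp-GTC-1-4 and tRNA:Asp-GTC-1-5, for aspartate tRNAs, lay 524 and 386 bp from the nearest coding start, that of Sema1a. Only tRNA:Asp-GTC-1-4 is therefore without a coding start within 500 bp. Both shared regions of 30.6 in replicate 3, 45.2 in replicate 4 and 65.9 in the pooled list. All 3 had q-values under 0.05. The replicate summits were 320 bp apart, the first 54 bp from the start of Sema1a, an axon guidance gene, and the second 12 bp inside tRNA:Asp-GTC-1-5.

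Another region shared by several genes lay in the 3R locus of 11 genes, with values of 45.8 in replicate 4 and 63.8 in the pooled list. Its pooled summit fell 31 bp inside the proline gene tRNA:Pro-TGG-1-2 and was also counted for tRNA:Ala-AGC-2-2 and tRNA:Ala-AGC-2-3. The replicate 3 value at tRNA:Pro-TGG-1-2 was 17.8, under the list median of 18.7, so this region was high in 1 replicate only. The pooled q-value was 0.058. The gene sequences that go with these 3 regions follow, with A and B box matches in capitals.
tRNA:Leu-CAA-2-2 (chr3L:13214109-13214233, plus strand): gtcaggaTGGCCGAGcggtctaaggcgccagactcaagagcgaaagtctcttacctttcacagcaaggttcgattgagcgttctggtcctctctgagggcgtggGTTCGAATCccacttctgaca
tRNA:Asp-GTC-1-5 (chr2L:8541761-8541832, plus strand): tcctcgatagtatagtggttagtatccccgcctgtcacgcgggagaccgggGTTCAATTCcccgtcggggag
tRNA:Pro-TGG-1-2 (chr3R:17619961-17620032, plus strand): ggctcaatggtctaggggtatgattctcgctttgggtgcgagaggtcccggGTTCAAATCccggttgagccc

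Those sequences show how the boxes vary. The stricter A box core TGGCNNAG was in 68 of the 290 members and TNGCNNAG in 144, while the stricter B box core GTTCGANNC was in 160 and GTTCNANNC in 271 (93.4%). In windows of 100 bases each side of pooled summits, on both strands, GTTCNANNC was in 14 of the 38 windows near members (36.8%) and in 6.19% of all 9576. Of those 14, 10 held it inside a tRNA gene, so the windows reach the gene itself. GTTCGANNC was in 7 of 38 (18.4%), against 1.63%. The DRE was in 1 of the 38 windows, against 2.10% of all, and GAGAGAG in none, against 4.26%. The window with a DRE was that of tRNA:Trp-CCA-2-2, where the match began 31 bp from the thresholded summit. That window also held GTTCGANNC, 8 bp from the summit and outside any tRNA gene.

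Genes that make or use tRNAs were looked at in the same way, against the same 3.75% (thresholded) and 19.8% (pooled). Over protein-coding genes alone, the nearer comparison for genes that encode proteins, these shares were 4.39% and 22.5%. Of 35 aminoacyl-tRNA synthetase genes, which encode the enzymes that charge tRNAs, 2 had a thresholded summit (5.71%) and 9 a pooled one (25.7%). These were IleRS, for isoleucine, with values of 74.4, 40.1 and 114.5 in replicate 3, replicate 4 and the thresholded list, and SerRS, for serine, with 67.8, 44.2 and 115.9. Of 20 genes of RNA polymerase III and its factors, 3 had a thresholded summit (15.0%) and 6 a pooled one (30.0%). Bdp1 had values of 119, 59.3 and 177.6, Brf 76.9, 78.6 and 157.7, and Polr3E, a polymerase subunit, 70.4, 47.5 and 110.1. All 5 summits also lay within 500 bp of the start of another protein-coding gene, at 350 bp for IleRS (Hem), 99 bp for SerRS (CG17260), 39 bp for Bdp1 (CG6565), 98 bp for Brf (sds22) and 256 bp for Polr3E (CG10584).

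Of 17 genes for tRNA processing and modification, none had a thresholded summit and 6 had a pooled one. The highest was Tgt, an enzyme of tRNA queuosine synthesis, with 64.5 in replicate 4, 78.1 in the pooled list and no summit in replicate 3. Of 104 further genes transcribed by RNA polymerase III, 96 were 5S ribosomal RNA copies with no summit in any list. These copies lie side by side on 2R (19729562 to 19766278). Whether reads can be placed uniquely there was not examined, so the lack of summits does not show a lack of binding. Of the 8 genes that are not 5S copies, only snRNA:7SKa had a thresholded summit. This RNA restrains the elongation factor P-TEFb. Its values were 32.2, 74.6 and 93.3 in replicate 3, replicate 4 and the thresholded list, with the summit 239 bp downstream of its start. No protein-coding gene starts within 500 bp of that summit.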

How the data were processed

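ChIP-seq peak lists from 2 samples were used, all on dm6. Per the deposited file descriptions, the authors called regions in each replicate and in the pooled replicates against a control alignment, then applied a threshold on the irreproducible discovery rate. Fragments were 200 to 800 bp, per the labels. Aligner and peak caller: not given in the sources used here. The deposited score (column 7) served as the value, and the deposited −log10 q-value gave q. The lists hold no read counts, so depth is unknown and no control sample was analysed here.

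Chromosome lengths of the RefSeq Release 6 assembly were compared with the lists, and positions are counted from 1. Genes came from Ensembl 115 (BDGP6.54), without transposable elements. A gene's start is that of its annotated gene; with every transcript start counted, the shares of all genes would be 4.51% (thresholded) and 22.0% (pooled). All 290 members have the same start and end in the RefSeq table. Distances to coding starts used every transcript start. A region was counted for each gene within 500 bp, and the highest value kept. Intervals are Wilson (shares) or exact Poisson (densities), at 95%. No test between samples was possible with 1 group.

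Members, pathway lists and motifs were chosen with earlier results of these data known. Named genes are all members with a thresholded summit, the 10 highest pooled values, the 5 highest in each replicate, the largest loci and those with most summits, pathway genes with a thresholded summit, and neighbouring coding genes; tRNA:Ile-AAT-1-9, Tgt and the neighbouring copies of tRNA:Tyr-GTA-1-8 were named after their values were seen. HisRS-m and Trmt1 were not matched. The wider A and B box motifs were added after seeing the sequences. The counting was tested on simulated summits. Alternatives were other windows, overlap with the gene body, a q-value limit, other locus gaps and each replicate alone. Python 3.11.15, pandas 2.3.3 and scipy 1.17.1 were used.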

Additional observations from a re-analysis of the deposited data

How the results depend on the processing

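Windows, q-value and position set the counts most. The 3 members with a thresholded summit became 0 at 200 bp, 6 at 1000 bp, 1 by overlap with the gene body and 0 without members near a coding start. The 49 with a pooled summit became 22 at 200 bp, 83 at 1000 bp, 27 by overlap and 8 at a q-value of 0.05 or less. The 32 in both replicates became 8, 63, 10 and 6 under the same settings. The 33 loci became 18 at 200 bp and 7 by q-value. The 9 pooled members near a coding start became 3 at 200 bp, 5 by q-value and 19 with coding starts within 1000 bp, and the 20 in introns became 6 at 200 bp, 32 at 1000 bp and 1 by q-value (7 between genes). The median position (-30 bp) was -92 bp at 1000 bp and -177 bp by q-value. With the regions of highest value in 1 replicate in place of both, the ranges were 3 to 4 members (thresholded), 44 (pooled, both replicates), 28 to 29 loci, 9 to 11 near a coding start, 16 to 17 in introns, and a median position of -12.5 to 94.5 bp, where the side of the start changed without replicate 4. Of 42 alternatives, 19 stayed within 1.5 times the count or 1 SD of the replicate medians (60.8 bp). No paired analysis was possible because the 2 samples form 1 group. The depth that limits these lists is unknown.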
